A study of Mus musculus with 9 samples.

Results

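The Fos family (Fos, Fosb, Fosl1 and Fosl2), the Jun family (Jun, Junb and Jund), 2 zinc finger factors of the Egr family (Egr1 and Egr2) and Myc were followed through the differentiation of 3T3-L1 cells into adipocytes. The 10 genes were chosen by symbol as AP-1 subunits and immediate early transcription factors, and they are 10 of the 19094 genes listed in at least 1 sample. 3T3-L1 is a mouse fibroblast-like preadipocyte line that stores lipid after hormonal induction. Day 0 cells were near confluence and had received no induction medium. Day 4 cells had been given 2 days of dexamethasone, IBMX and insulin and then 2 days of medium with insulin alone. Day 8 cells had stayed in medium with insulin for 4 further days. All were grown with fetal bovine serum, and all belong to 1 line kept in dishes. Fresh medium was given at day 4, and whether the day 4 cells were collected before or after that change is not given in the sources used here.

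RNA-seq was done on 3 samples per day, each with between 18216114 and 20452144 expected counts. The study's methods state that cells of each stage were pooled, and nothing says that the 3 samples of a day came from separate cultures, so the p-values below measure the spread between these samples, which may be technical. Bulk RNA was sequenced, so fewer cells of a type and less RNA per cell cannot be told apart. The extraction text in the sample labels names DRG as the source, an abbreviation usually used for a sensory nerve ganglion, and the labels call cells of every day adipocytes. All 7 adipocyte markers were called higher at day 4 than at day 0, and their summed FPKM was 143 to 148 on day 0, then 5294 to 7572 on day 4, and 8002 to 8774 by day 8, with Fabp4, a fatty acid carrier, as the most abundant at day 4 and day 8. Of 12 sensory neuron markers, 10 stayed under 1 FPKM in all 9 samples, and all 12 together summed to 1.85 to 3.47 FPKM. The rest were Avil (0.42 to 2.62 FPKM) and Snap25 (0 to 1.17 FPKM). Avil was called lower and Snap25 higher at day 4 than at day 0 (log2 fold changes of -2.11 and 5.45). The day 0 samples held Col1a2, a collagen gene of fibroblasts, at 1726 to 1900 FPKM and little adipocyte RNA, against their label. Of the 4 endothelial markers all were under 1 FPKM in every sample, the leukocyte markers summed to 1.41 to 2.23 FPKM, and of the glial markers Sox10 and Mbp were under 1 FPKM while Pmp22, which fibroblasts also make, held 122 to 165 FPKM.

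AP-1 is a dimer of basic leucine zipper proteins that binds short palindromes in DNA. Jun proteins can pair with one another or with Fos proteins, whereas Fos proteins need a partner such as Jun. Immediate early genes such as Fos, Egr1 and Myc are switched on within minutes to hours of serum or growth factors without new protein synthesis, through factors already present such as SRF, its ternary complex partners and CREB, and their RNAs are short-lived. In preadipocytes Fos and Jun are known from the first hours after induction, and Myc from the growth of the cells before they leave the cycle. The samples at day 4 and day 8 lie days after the cocktail was added, and no sample was taken within its first hours.

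The levels were compared between genes in FPKM, which is scaled to gene length. At day 0 the order ran from Egr1 at 267 ± 27 FPKM (SD, n = 3) through Junb at 152 FPKM and Jund at 62.5 FPKM to Fosb at 6.98 FPKM. Egr1 and Junb stood above 98.8% and 97.7% of the 17650 genes listed at day 0, so the RNAs were far from silent in cells without the cocktail. Jun, Fos and Myc followed one another at 47.8, 39.2 and 37.4 FPKM, and samples of neighbours in that order overlapped. At day 4 Fos moved up to the third place with 120 FPKM, where its samples overlapped those of Junb and Jund. At day 8 no neighbours in the order overlapped, and Fosl1 stood next after Jund at 47.9 FPKM, above Jun at 39.9 FPKM and Fos at 34.4 FPKM, with Fosb last at 2.46 FPKM.

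**Figure D1:**
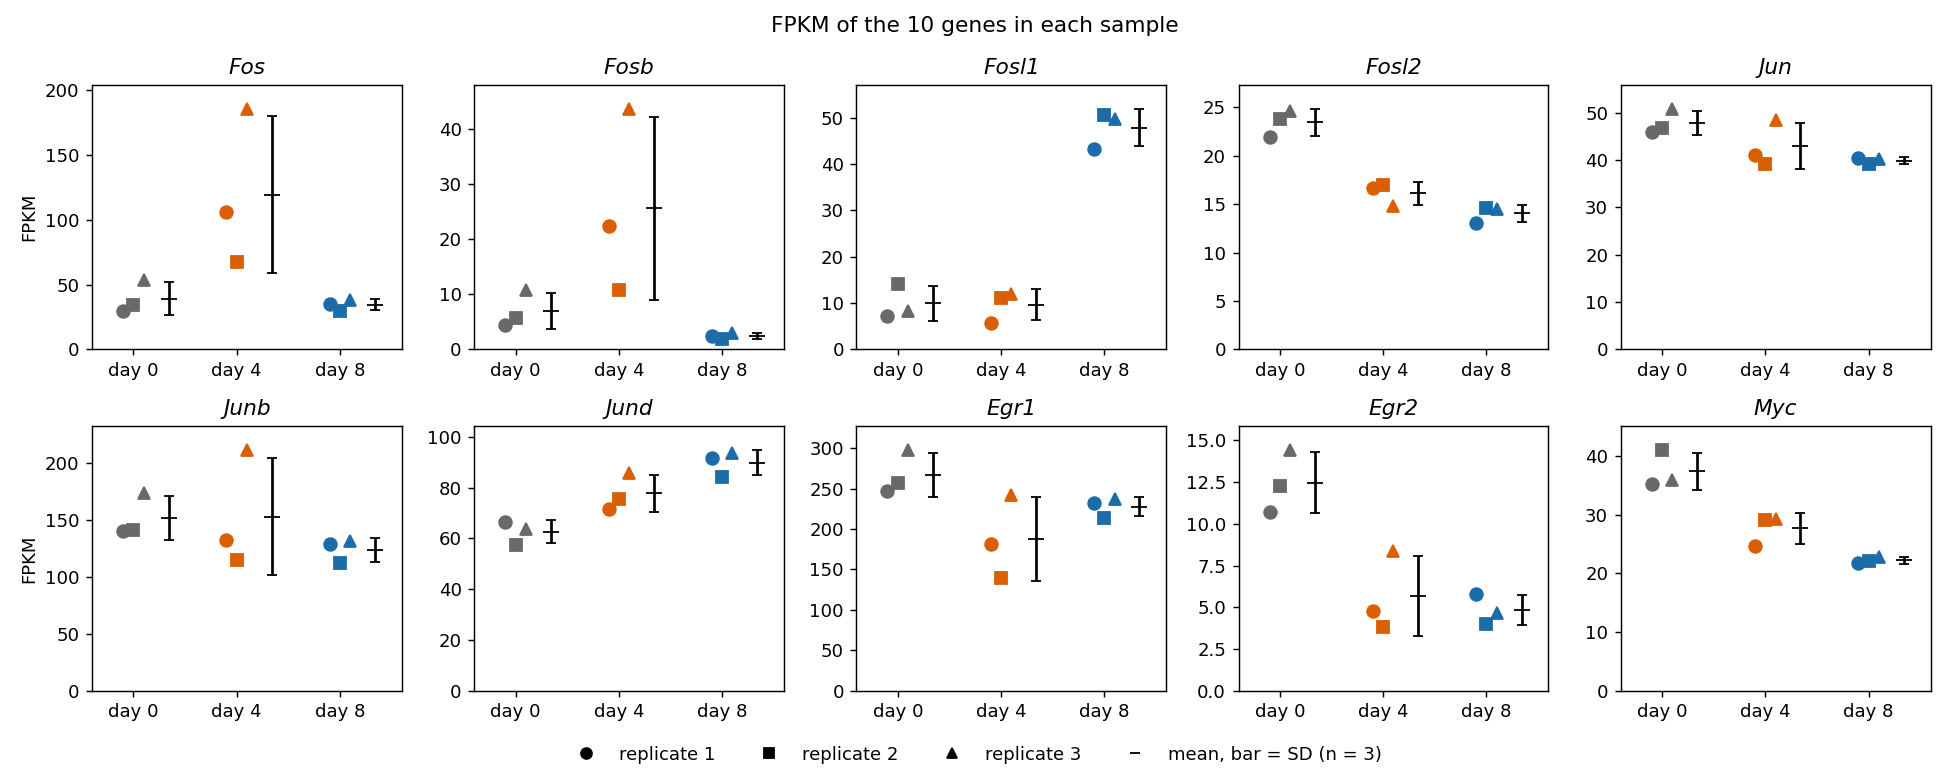
FPKM (linear axes from 0) of the 10 genes in each of the 9 samples by day, with 1 symbol per replicate number and the mean with SD (n = 3) beside the points. Fos and Fosb peak at day 4 with a wide spread, Fosl1 reaches 43.3 to 50.7 FPKM only in the day 8 samples, and Jun stays between 39.1 and 50.8 FPKM throughout.

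For the early phase (day 4 versus day 0), a gene was called where the adjusted p of edgeR's quasi-likelihood test (Benjamini-Hochberg over 13154 tested genes) was under 0.05 and the fold change was above 2. All 10 genes were tested. Fos and Fosb were called higher and Egr2 lower, that is 2 and 1 of 10, where 9.77% of all tested genes were called higher and 7.98% lower. In the late phase (day 8 versus day 4), Fosl1 was called higher and Fos and Fosb lower, 1 and 2 of 10 against 4.24% higher and 2.81% lower among all tested genes. Over the whole process (day 8 versus day 0), Fosl1 was called higher and Fosb and Egr2 lower, 1 and 2 of 10 against 10.3% and 7.7%. Jun, Junb, Jund, Egr1, Fosl2 and Myc were called in none of the 3 comparisons, which share samples with one another and are not independent. With the p threshold alone, which 69.2% of all tested genes passed in the early phase, 45.3% in the late phase and 71.0% over the whole process, 7, 5 and 6 of the 10 genes passed.

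**Figure D2:**
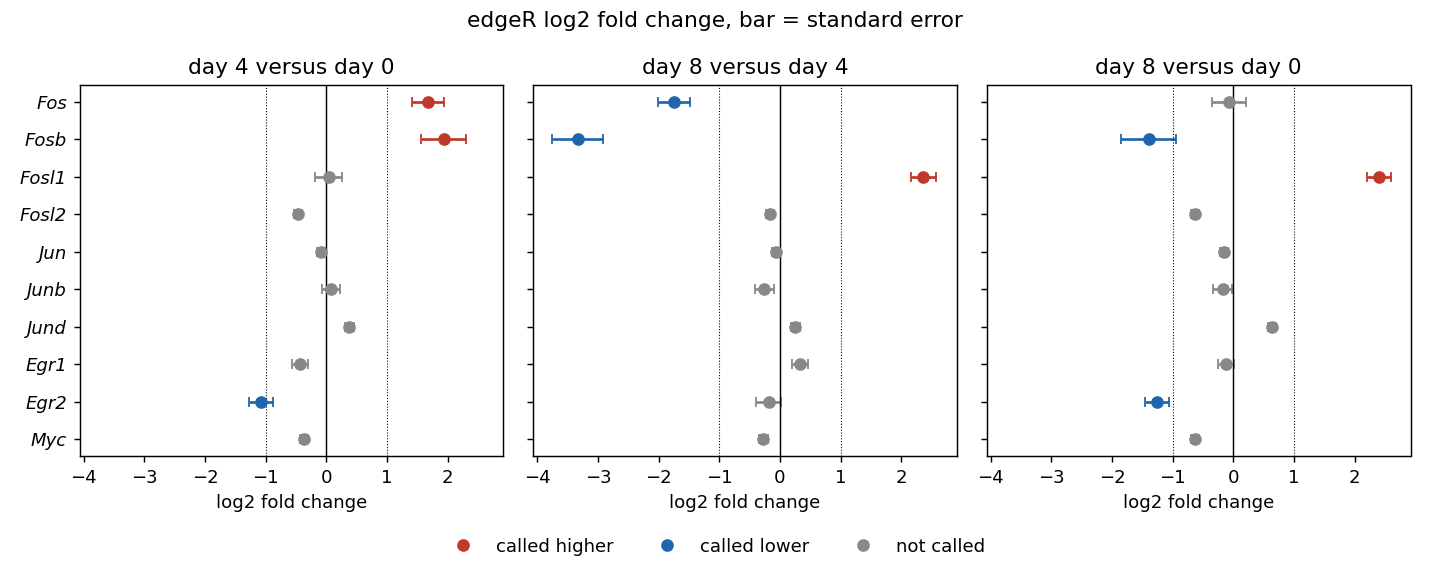
Log2 fold changes (x axes) of the 10 genes in the 3 comparisons from edgeR's quasi-likelihood fit, with bars for the standard error and dotted lines at a fold change of 2. The lowest value belongs to Fosb in the late phase (-3.33) and the highest to Fosl1 over the whole process (2.40).

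Fos, the founding partner of Jun in AP-1 (gene ID 14281), was measured at 29.8, 34.3 and 53.4 FPKM in replicates 1, 2 and 3 of day 0. At day 4 it stood at 106, 67.4 and 185 FPKM, and at day 8 at 35.1, 29.8 and 38.4 FPKM. Every day 4 sample was above every sample of the other days, while the samples of day 0 and day 8 overlapped. Fos rose early by a log2 fold change of 1.67 ± 0.27 (SE; edgeR adjusted p = 3.6e-05), and its late log2 fold change was -1.75 ± 0.27 (edgeR adjusted p = 6.2e-05). From day 0 to day 8 the net value was -0.08 ± 0.27 (edgeR adjusted p = 0.82). The peak did not rest on its highest sample, since without day 4 replicate 3 the log2 fold changes were 1.21 and -1.29 and both calls stood.

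Fosb (gene ID 14282), a paralog of Fos that is also made as the shortened and long-lived ΔFosB protein, was measured at 4.50, 5.74 and 10.7 FPKM at day 0. It stood at 22.3, 10.9 and 43.6 FPKM at day 4 and at 2.5, 1.95 and 2.93 FPKM at day 8. Its day 4 samples were all above those of day 0, the lowest of them only just, and all day 8 samples lay below those of day 0. Its early log2 fold change was 1.93 ± 0.37 (edgeR adjusted p = 2.0e-04) and its late one -3.33 ± 0.42 (edgeR adjusted p = 8.2e-06). Both calls stood without day 4 replicate 3, the highest sample, but the values were then 1.31 and -2.71. The lower level at day 8 than at day 0, a log2 fold change of -1.40 ± 0.46 (edgeR adjusted p = 0.012), was not called without day 0 replicate 3 (-0.94, adjusted p = 0.088) or without day 8 replicate 2 (-1.25, adjusted p = 0.052). The files give 1 value per gene, so the full-length and short forms of Fosb were not separated.

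Of all pairs of the 10 genes, Fos and Fosb had the highest Pearson's r of log2 CPM over the 9 samples (0.93). Fosl2 with Myc (0.89) and Jun with Junb (0.89) came next. The 100 bases before the start sites of Fos and Fosb are shown for that reason. The sequences are from RefSeq on GRCm38.p6. Windows from 250 bases before to 50 after the start site were used for 7 of the 10 genes, that is for all but Fosl1, Egr1 and Myc. In the Fos stretch, at chr12:85473790-85473889 on the plus strand, the capitals mark the letters of a TATA box. In the Fosb stretch, at chr7:19310046-19310145 on the minus strand, they mark a match to the form of site that Egr proteins bind.
Fos: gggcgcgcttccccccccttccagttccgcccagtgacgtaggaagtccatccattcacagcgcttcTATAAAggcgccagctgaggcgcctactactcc
Fosb: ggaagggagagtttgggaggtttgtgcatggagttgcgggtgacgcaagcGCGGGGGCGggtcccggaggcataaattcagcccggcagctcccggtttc
Both strands of each window were searched for these motifs and 4 others, and the share of all 32851 RefSeq windows that hold each is given. The CREB site TGACGTCA was in 1.79% of the windows and the AP-1 site TGANTCA in 7.81%. The E-box CACGTG, which Myc and Max bind, was in 7.15%, and the Egr site GCGNGGGCG in 5.55%. The TATA box letters TATAAA were in 13.6%, and the CArG box, to which SRF binds and within which those letters can fall, was in 1.63%. In the windows of Fos and Fosb the marked letters were the only exact matches, so the 2 genes shared no exact match within them. Sites that differ from these letters were not searched for, so variant forms that both genes may hold were not counted. Sites outside the windows were not counted either. Fosl2 also held GCGGGGGCG and Junb TATAAA, while the windows of Jun and Jund held no match. A match is a description of the sequence, and no binding was measured here.

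Fosl1 (gene ID 14283), which encodes Fra-1, a Fos protein without the activation domain of Fos, was measured at 7.30, 14.2 and 8.28 FPKM at day 0. At day 4 it stood at 5.80, 11.1 and 11.9 FPKM, and at day 8 at 43.3, 50.7 and 49.7 FPKM. Samples of day 0 and day 4 overlapped, and those of day 8 were all far above both. From day 0 to day 4 Fosl1 differed by 0.03 ± 0.23 on the log2 scale (edgeR adjusted p = 0.90), from day 4 to day 8 by 2.36 ± 0.20 (edgeR adjusted p = 1.0e-07), and from day 0 to day 8 by 2.40 ± 0.20 (edgeR adjusted p = 2.4e-08). Fosl1 thus rose between day 4 and day 8, when Fos and Fosb fell.

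The Fosl1 value carried an uncertainty that the other Fos genes did not. In GENCODE vM21, 52.6% of the 50-base stretches of its transcripts also occur in Ccdc85b, a coiled-coil protein gene that overlaps it on the opposite strand, and whether the authors counted by strand is not given in the sources used here. None of the 9 expected counts of Fosl1 was a whole number, which is how reads divided between genes appear. Ccdc85b was itself at 10.9 to 11.6 FPKM on day 0, then 15.1 to 19.0 on day 4, and 22.3 to 25.6 by day 8, with a late log2 fold change of 0.51 ± 0.07 (edgeR adjusted p = 3.2e-05). When the expected counts of both genes were summed into 1 feature, an alternative chosen after seeing the data, the sum ranged over 1276 to 1373 in the day 0 samples, 1553 to 2060 in those of day 4 and 3535 to 3941 in those of day 8. The summed feature differed by 0.54 on the log2 scale from day 0 to day 4, by 1.05 from day 4 to day 8 and by 1.59 from day 0 to day 8 (edgeR adjusted p = 2.5e-10). How the shared reads should be divided between the 2 genes was not tested.

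Fosl2 (gene ID 14284), which encodes Fra-2, was measured at 21.9, 23.7 and 24.6 FPKM at day 0, at 16.7, 17.0 and 14.8 FPKM at day 4 and at 13.0, 14.6 and 14.5 FPKM at day 8. Its day 0 samples were above all others, and the samples of day 4 and day 8 did not overlap in FPKM. In the tested log2 CPM, which use other scaling factors, those of day 4 and day 8 did overlap. Fosl2 differed by -0.47 ± 0.06 on the log2 scale early (edgeR adjusted p = 7.8e-06), by -0.16 ± 0.07 late (edgeR adjusted p = 0.066) and by -0.63 ± 0.07 from day 0 to day 8 (edgeR adjusted p = 2.9e-07). Each was smaller than 2-fold.

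The make-up of the Fos family therefore differed at each day. The 4 genes summed to 79.5 ± 16.8 FPKM (SD, n = 3) at day 0, to 171 ± 77 FPKM by day 4 and to 98.8 ± 6.0 FPKM by day 8. Fos held the largest share at day 0 (48.6% ± 5.7) and at day 4 (68.7% ± 4.8), and Fosl1 at day 8 (48.5% ± 3.3 against 34.8% ± 3.6 for Fos). Fosl2 held 30.1% at day 0 and 10.9% and 14.2% later, and Fosb 8.49%, 14.0% and 2.48%. In all 3 day 8 samples the Fosl1 share was above the Fos share, and in none of the other 6 samples was it. These shares are a description of the deposited FPKM and depend on how Fosl1 reads were assigned.

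**Figure D3:**
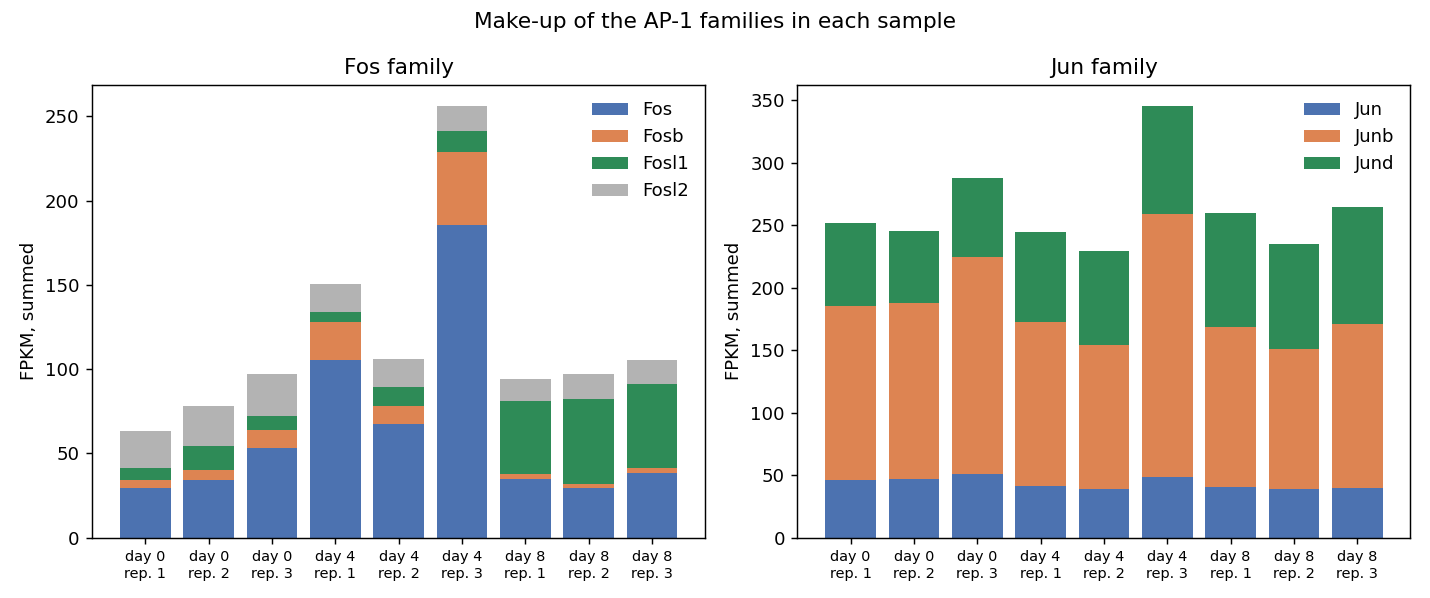
Summed FPKM (y axes, from 0) of the 4 Fos family genes (left) and the 3 Jun family genes (right) in each sample, with 1 colour per gene. Fosl1 takes 46.1% to 52.2% of the Fos family in the day 8 samples and 3.85% to 18.2% in the others, whereas the order Junb, Jund, Jun holds in every sample.

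Jun (gene ID 16476), the first AP-1 subunit described and a target of the JNK kinases, was measured at 45.9, 46.8 and 50.8 FPKM at day 0, at 41.1, 39.2 and 48.4 FPKM at day 4 and at 40.4, 39.1 and 40.1 FPKM at day 8. Day 0 and day 4 overlapped through replicate 3 of day 4, and all day 8 samples were below those of day 0. Its early, late and net log2 fold changes were -0.09 ± 0.07, -0.06 ± 0.07 and -0.15 ± 0.07, and none passed the p threshold (edgeR adjusted p = 0.24, 0.48 and 0.052).

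Junb (gene ID 16477), which can act against Jun in growth control, was the most abundant of the family. It was measured at 140, 141 and 174 FPKM at day 0, at 132, 115 and 211 FPKM at day 4 and at 128, 112 and 131 FPKM at day 8. The day 4 samples overlapped those of both other days, with replicate 3 of day 4 above and replicate 2 of day 8 below all others. None of its log2 fold changes, 0.07 ± 0.15, -0.25 ± 0.16 and -0.18 ± 0.16, passed the p threshold (edgeR adjusted p = 0.68, 0.20 and 0.31).

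Jund (gene ID 16478), the Jun gene known for high levels in resting cells, was the member of its family with a steady gradient. It was measured at 66.5, 57.5 and 63.6 FPKM at day 0, at 71.5, 75.6 and 85.9 FPKM at day 4 and at 91.5, 84.2 and 93.6 FPKM at day 8. In FPKM day 4 and day 8 overlapped through replicate 3 of day 4 and replicate 2 of day 8, and in the tested log2 CPM the samples of each later day were all higher. Jund differed by 0.38 ± 0.07 on the log2 scale early (edgeR adjusted p = 1.6e-04), by 0.26 ± 0.07 late (edgeR adjusted p = 0.0068) and by 0.63 ± 0.07 from day 0 to day 8 (edgeR adjusted p = 5.5e-07), each under 2-fold. Of its 50-base stretches 48.3% occur in Gm11175 on the opposite strand, a gene not listed in the files, so reads of that gene could not be told apart from those of Jund, whose 9 expected counts were all whole numbers. For Jun and Junb the shared stretches were 5.83% (with Junos) and 5.76% (with Prdx2), and for the remaining genes other than Fosl1 none were shared.

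Summed, the Jun family stayed at 262 ± 23, 273 ± 63 and 253 ± 16 FPKM at day 0, day 4 and day 8. The share of Jund was 24.0%, 29.0% and 35.5%, and that of Junb 57.7%, 55.0% and 48.8%. The summed Fos family over the summed Jun family gave a ratio of 0.302 ± 0.045 before induction, 0.607 ± 0.140 by day 4 and 0.391 ± 0.027 by day 8. Every day 4 sample had a higher ratio than any other sample, the lowest of them 0.463 in replicate 2 against 0.413 in the highest of day 8. RNA levels do not give the amounts of the dimers.

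Egr1 (gene ID 13653), a zinc finger factor induced by serum, had the highest FPKM of the 10 genes on each day. It was measured at 247, 257 and 297 FPKM at day 0, at 182, 139 and 242 FPKM at day 4 and at 233, 214 and 237 FPKM at day 8. Replicates 1 and 2 of day 4 were below all other samples, whereas replicate 3 of day 4 lay above the day 8 samples. Early, Egr1 differed by -0.44 ± 0.13 on the log2 scale (edgeR adjusted p = 0.0070), under 2-fold. Late it differed by 0.33 ± 0.13 (edgeR adjusted p = 0.054), and from day 0 to day 8 by -0.12 ± 0.13 (edgeR adjusted p = 0.44).

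Egr2 (gene ID 13654), known as Krox20 and named among the early inducers of adipogenesis, was measured at 10.7, 12.3 and 14.4 FPKM at day 0, at 4.78, 3.84 and 8.39 FPKM at day 4 and at 5.77, 4.0 and 4.66 FPKM at day 8. All day 0 samples were above those of the later days, which overlapped each other. Egr2 fell by 1.07 ± 0.20 on the log2 scale from day 0 to day 4 (edgeR adjusted p = 1.3e-04) and fell by 1.26 ± 0.20 from day 0 to day 8 (edgeR adjusted p = 3.0e-05). The early value lay close to 2-fold and was -0.95, -0.97 and -0.87, under 2-fold, without day 0 replicate 3, day 4 replicate 1 and day 4 replicate 2. RefSeq lists 5 windows for Egr2, and 4 of them held a CArG box, while the remaining one held the E-box CACGTG. No CArG box was in the windows of the other 6 genes with a window, among them Fos. Sequence outside the windows was not searched, so a CArG box further from the start site of these genes would not have been found. The CArG box shared by 3 overlapping windows of Egr2 is shown in capitals within 30 bases at chr10:67537787-67537816 (plus strand) of GRCm38.p6.
Egr2: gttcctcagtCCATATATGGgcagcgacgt
Nab2 and Nab1, corepressors that bind Egr proteins, were called in none of the comparisons. Nab2 had an early log2 fold change of -0.44 ± 0.05 (edgeR adjusted p = 1.2e-06), and Nab1 one of -0.12 ± 0.06 (edgeR adjusted p = 0.075).

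Myc (gene ID 17869), a driver of ribosome synthesis and cell growth, was measured at 35.2, 41.0 and 35.9 FPKM at day 0, at 24.6, 29.1 and 29.3 FPKM at day 4 and at 21.7, 22.1 and 22.8 FPKM at day 8. The days formed descending steps without overlap. Myc differed by -0.37 ± 0.07 on the log2 scale early (edgeR adjusted p = 1.9e-04), by -0.27 ± 0.07 late (edgeR adjusted p = 0.0054) and by -0.64 ± 0.07 from day 0 to day 8 (edgeR adjusted p = 5.4e-07), each under 2-fold. Of 12 tested genes of the Myc network, Mxi1, which competes with Myc for its partner Max, was called higher in the late phase (1.04 ± 0.08, edgeR adjusted p = 5.6e-08) and over the whole process (2.01 ± 0.09), and its late call was lost without day 4 replicate 1 or day 8 replicate 3. Its FPKM was 3.80 to 4.51 on day 0, then 7.18 to 8.47 on day 4, and 14.2 to 17.2 by day 8. Its early value of 0.97 lay just under 2-fold and was called in 3 of the 9 fits with 1 sample left out. Max itself had an early log2 fold change of 0.16 ± 0.06 (edgeR adjusted p = 0.018). Mlxipl (ChREBP) was called higher at day 4 and at day 8 than at day 0, and Mycl lower at day 8 than at either other day, both at an average under 1 CPM, and Mycn was not tested. The late call of Mycl was lost in 6 of the 9 fits with 1 sample left out. In all, 1 gene of the network was called higher and 0 lower early, 1 and 1 late, and 2 and 1 over the whole process, where 9.77% and 7.98%, 4.24% and 2.81%, and 10.3% and 7.7% of all tested genes were called. Of 20 known Myc targets, Ldha was called higher and Shmt2 lower in the early phase, beside the same 9.77% and 7.98% of all tested genes. Both lay close to 2-fold (1.08 ± 0.10 and -1.01 ± 0.07), and neither was called without day 4 replicate 3, nor Shmt2 without day 0 replicate 2. The list's median log2 fold change was -0.31 there and -0.41 over the whole process, beside 0.02 and -0.02 for all tested genes. Day 0 replicate 2 was the highest sample of its day for 18 of the 20 targets, as it was for 36.5% of all tested genes, and without it the medians were -0.23 and -0.39. Ldha, lactate dehydrogenase A, was the only gene of that list called higher in any comparison, with 201 to 244 FPKM on day 0, then 357 to 486 on day 4, and 723 to 797 by day 8.

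The spread between samples of a day differed widely among the 10 genes. The coefficient of variation of normalised counts at day 4 was 49.9% for Fos, 64.5% for Fosb, 41.8% for Egr2, 34.5% for Fosl1, 33.0% for Junb and 27.1% for Egr1, where the 1000 genes nearest in level had medians between 4.70% and 6.26%. The dispersion of these 6 genes lay at or above the 99.7th percentile of their neighbours in level. Fosl2, Jun, Jund and Myc lay between the 88.5th and the 92.3rd percentile, with variation from 7.81% to 10.8% at day 4.

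The deviations followed the library. Replicate 3 was the highest of its day for 7 of the 10 genes before induction, for 8 of them on day 4 and for 8 on day 8, where the same libraries were the highest for 29.9%, 37.7% and 35.3% of all tested genes. Day 0 replicate 1, day 4 replicate 2 and day 8 replicate 2 were the lowest of their days for 8, 6 and 7 of the 10 genes, and for 34.9%, 29.0% and 31.9% of all tested genes. Among 27 other immediate early genes, replicate 3 of day 0, day 4 and day 8 was the highest for 18, 17 and 19. At day 4 replicate 3 exceeded the mean of the day by 0.75 for Fos, 0.98 for Fosb, 0.63 for Egr2, 0.51 for Junb and 0.40 for Egr1 in log2 CPM, and fell under it by 0.13 for Fosl2. Fosl1 and Myc had another order, with day 0 replicate 2 high by 0.57 and 0.13 and day 4 replicate 1 low by 0.65 and 0.16. The summed adipocyte markers at day 4 were also highest in replicate 3 (7572 FPKM) and lowest in replicate 1 (5294 FPKM), and the part of cell state, handling or collection time in these deviations was not tested.

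**Figure D4:**
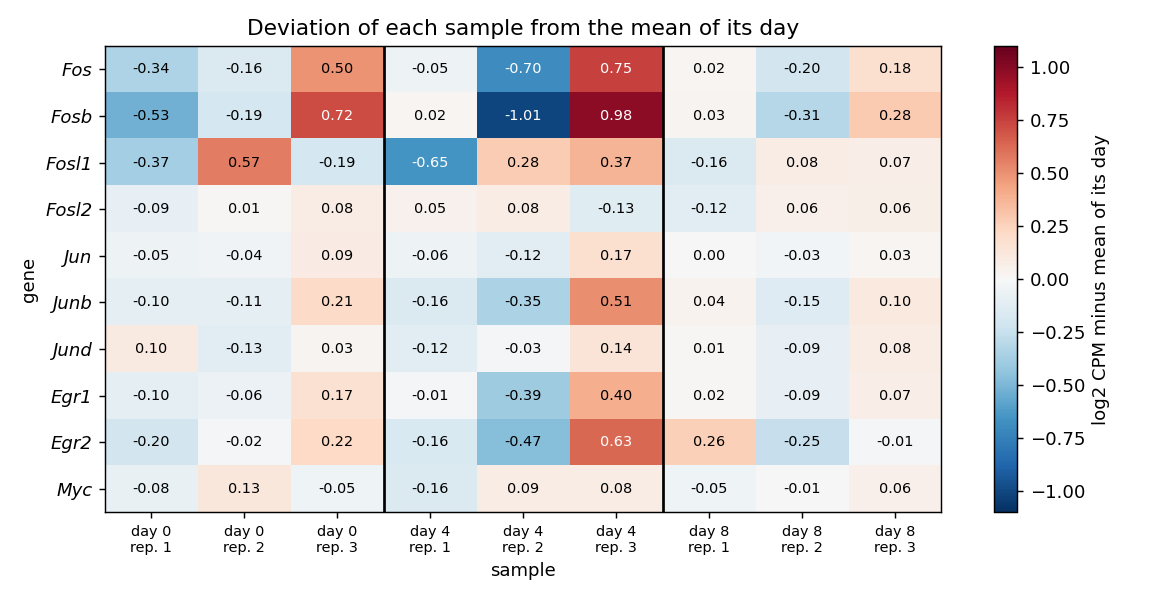
Deviation of each sample (columns) from the mean of its day in log2 CPM for the 10 genes (rows), with red above and blue below the mean. Fos, Fosb, Junb, Egr1 and Egr2 share a pattern with day 4 replicate 3 high and day 4 replicate 2 low, reaching 0.98 and -1.01 for Fosb.

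Genes with the profile most like each member over the 9 samples were taken from 11467 candidates by Pearson's r of log2 CPM, given as a description over points that share days. For Fos they were Rsrc2 (0.97), Zfp36 (0.97) and Sco1 (0.97), and for Fosb Gmfb (0.97), Pgap3 (0.97) and Gm14420 (0.97). Pearson's r takes no account of the size of a change, and Rsrc2 and Gmfb, the first of each, changed far less than Fos and Fosb. Rsrc2 was at 20.7 to 22.7 FPKM on day 0 and 23.2 to 26.1 on day 4. Gmfb was at 25.5 to 25.8 FPKM on day 0 and 25.2 to 28.95 on day 4. Zfp36, which encodes the mRNA decay factor tristetraprolin and is itself an immediate early gene, was at 63.5 to 87.7 FPKM on day 0, then 155 to 245 on day 4, and 75.6 to 81.7 by day 8. For Fosl1 they were Hilpda (0.99), Pkm (0.99) and 1700037H04Rik (0.99), of which Hilpda, a lipid droplet protein induced by hypoxia, stood at 7.72 to 9.97, 7.40 to 9.16 and 16.1 to 18.8 FPKM on the 3 days. For Fosl2 they were Peg3, Zfp599 and Rad9a (each 0.98 or 0.99), for Jund Foxs1, Mpp7 and Imp3 (0.98 or 0.99) and for Myc Rpsa, Ipo11 and Pbdc1 (0.99). Egr1 had Btg2 (0.96), an antiproliferative immediate early gene, LOC106740 (0.91) and Exosc3 (0.90), and Egr2 had Gm6793, Smim15 and Tlk1 (0.96 each). The likeness was lowest for Jun (Hk1os 0.93, Hoxb3 0.90, Rpl35a 0.90) and Junb (Mplkip 0.90, Jun 0.89, Slc35a1 0.89).

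The other immediate early genes did not move as 1 group. Of 29 listed, 27 were tested, and 3 were called higher and 10 lower in the early phase, 4 and 4 in the late phase, and 1 and 8 over the whole process. Among all tested genes 9.77% were called higher and 7.98% lower early, 4.24% and 2.81% late, and 10.3% and 7.7% over the whole process. The list's median log2 fold change was -0.75, -0.09 and -0.65 in the 3 comparisons, beside 0.02, -0.01 and -0.02 for all tested genes. Per1, a clock repressor, Zfp36 and Rhob, a small GTPase, were called higher at day 4 (1.78 ± 0.05, 1.45 ± 0.13 and 1.42 ± 0.06). Per1 and Zfp36 were called lower again at day 8, together with Dusp1, a MAP kinase phosphatase (-1.12 ± 0.09), and Gadd45b (-1.71 ± 0.11). Ptgs2, the inducible prostaglandin synthase, went the other way, with 12.5 to 18.7 FPKM at day 0 and 0.34 to 0.58 FPKM in all later samples (early -5.09 ± 0.16, edgeR adjusted p = 1.4e-13). Plk2, a polo-like kinase, fell by 3.12 ± 0.07 and Egr3 fell by 2.12 ± 0.16 in the early phase. Ier3 and Plk2 were called lower in the early phase and higher in the late phase (Plk2 late 1.37 ± 0.07). Phlda1 was too, but its late value of 1.01 lay at 2-fold and was not called without day 4 replicate 3, day 8 replicate 1 or day 8 replicate 3. The late call of Dusp1 was lost without day 4 replicate 3. Arc, the only gene of the list called higher over the whole process (1.21 ± 0.37), averaged under 1 CPM and was not called without day 8 replicate 3. Egr4 and Nr4a3 did not pass the filter on low counts.

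Among other basic leucine zipper genes that can pair with Fos or Jun proteins, 8 of 11 were tested, as Batf, Batf2 and Batf3 were too low. In the early phase 1 was called higher and 1 lower, in the late phase 1 and 0, and over the whole process 2 and 1, where 9.77% and 7.98%, 4.24% and 2.81%, and 10.3% and 7.7% of all tested genes were called. Maf was called higher at both later days than at day 0, with 27.6 to 28.6 FPKM on day 0, then 82.0 to 91.9 on day 4, and 48.1 to 56.8 by day 8 (early log2 fold change 1.68 ± 0.06, edgeR adjusted p = 6.8e-13, and net 1.04 ± 0.06). Atf3, a stress-induced partner of Jun, had the opposite course, with 5.17 to 6.16 FPKM on day 0, then 0.57 to 1.23 on day 4, and 3.71 to 4.50 by day 8 (early -2.63 ± 0.19, late 2.24 ± 0.19). Over the whole process the small Maf genes Maff and Mafk were also called, higher and lower (1.09 ± 0.14 and -1.11 ± 0.07). The net calls of Maf and Maff lay close to 2-fold and were lost without day 8 replicate 1 and day 8 replicate 3, and Maff, with a late value of 0.99, was called in the late phase in 4 of the 9 fits with 1 sample left out.

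Of 24 upstream kinases and factors, all tested, 0 were called higher and 1 lower in the early phase, and 0 in either direction in the other comparisons. Among all tested genes 9.77% and 7.98% were called early, 4.24% and 2.81% late, and 10.3% and 7.7% over the whole process. With the p threshold of edgeR alone, 10 of the 24 passed higher and 8 lower early, 9 and 5 late, and 10 and 9 over the whole process. That threshold alone was passed, in either direction, by 69.2%, 45.3% and 71.0% of all tested genes in the 3 comparisons. The called gene was the ternary complex factor Elk3, at 20.6 to 22.5 FPKM on day 0, then 8.37 to 8.81 on day 4, and 12.0 to 12.2 by day 8 (early -1.26 ± 0.05, edgeR adjusted p = 3.3e-12). Srf, the factor that binds CArG boxes, was at 25.9 to 26.7, 16.1 to 16.8 and 16.5 to 17.2 FPKM, an early log2 fold change of -0.62 ± 0.04 (edgeR adjusted p = 3.2e-09), under 2-fold. RNA levels of kinases do not give their activity.

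Known AP-1 target genes included many with low levels at day 4. Of 14 listed, 12 were tested, and 0 were called higher and 7 lower in the early phase, 4 higher and 0 lower in the late phase, and 2 higher and 4 lower over the whole process. The shares of all tested genes called were 9.77% higher and 7.98% lower early, 4.24% and 2.81% late, and 10.3% and 7.7% over the whole process. In the early phase 10 of the 12 were lower in all samples of day 4 than in all of day 0, as were 35.4% of all tested genes. Mmp3, the matrix protease stromelysin, was at 17.6 to 19.7 FPKM on day 0, then 2.29 to 2.79 on day 4, and 8.57 to 11.1 by day 8 (early -2.76 ± 0.11, late 1.97 ± 0.11). Mmp9 and Plau, further matrix proteases, followed the same course, with late values of 1.12 and 1.07. The late call of Mmp9 was lost without day 4 replicate 3, that of Plau without day 4 replicate 3, day 8 replicate 1 or day 8 replicate 3, and the net call of Plau (-1.05) without day 0 replicate 3 or day 8 replicate 2. Spp1 (osteopontin) fell early (-2.47 ± 0.15) and Mmp13 rose late (1.92 ± 0.16). Ccnd1 and Cd44 were called lower both early (-1.14 and -1.31) and over the whole process (-1.62 and -1.37). They did not rise late (-0.48 and -0.06). The list's median log2 fold change was -1.22, 0.71 and -0.77 in the 3 comparisons, beside 0.02, -0.01 and -0.02 for all tested genes. The summed level of the 7 preadipocyte or fibroblast markers was also lowest at day 4, with 4584 to 4850 FPKM on day 0, then 3101 to 3444 on day 4, and 5530 to 5644 by day 8, where Col1a2 was the most abundant marker. Of these, 0 were called higher and 2 lower (Dlk1 and Ly6a) in the early phase and 1 higher (Dlk1) and 0 lower in the late phase, with median log2 fold changes of -0.44 and 0.81. Dlk1, an inhibitor of adipogenesis made by preadipocytes, had an early log2 fold change of -2.13 ± 0.06 and a late one of 1.25 ± 0.06. Pdgfra, a receptor of preadipocytes, went the other way (0.84 ± 0.05 early and -0.59 ± 0.05 late), and Ly6a had a late value of -0.09 ± 0.05. Col1a1 and Col1a2 made up most of the sum. The part of cell make-up in the course of the AP-1 targets was not tested. These targets answer to many other factors, and no binding of AP-1 was measured.

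**Figure D5:**
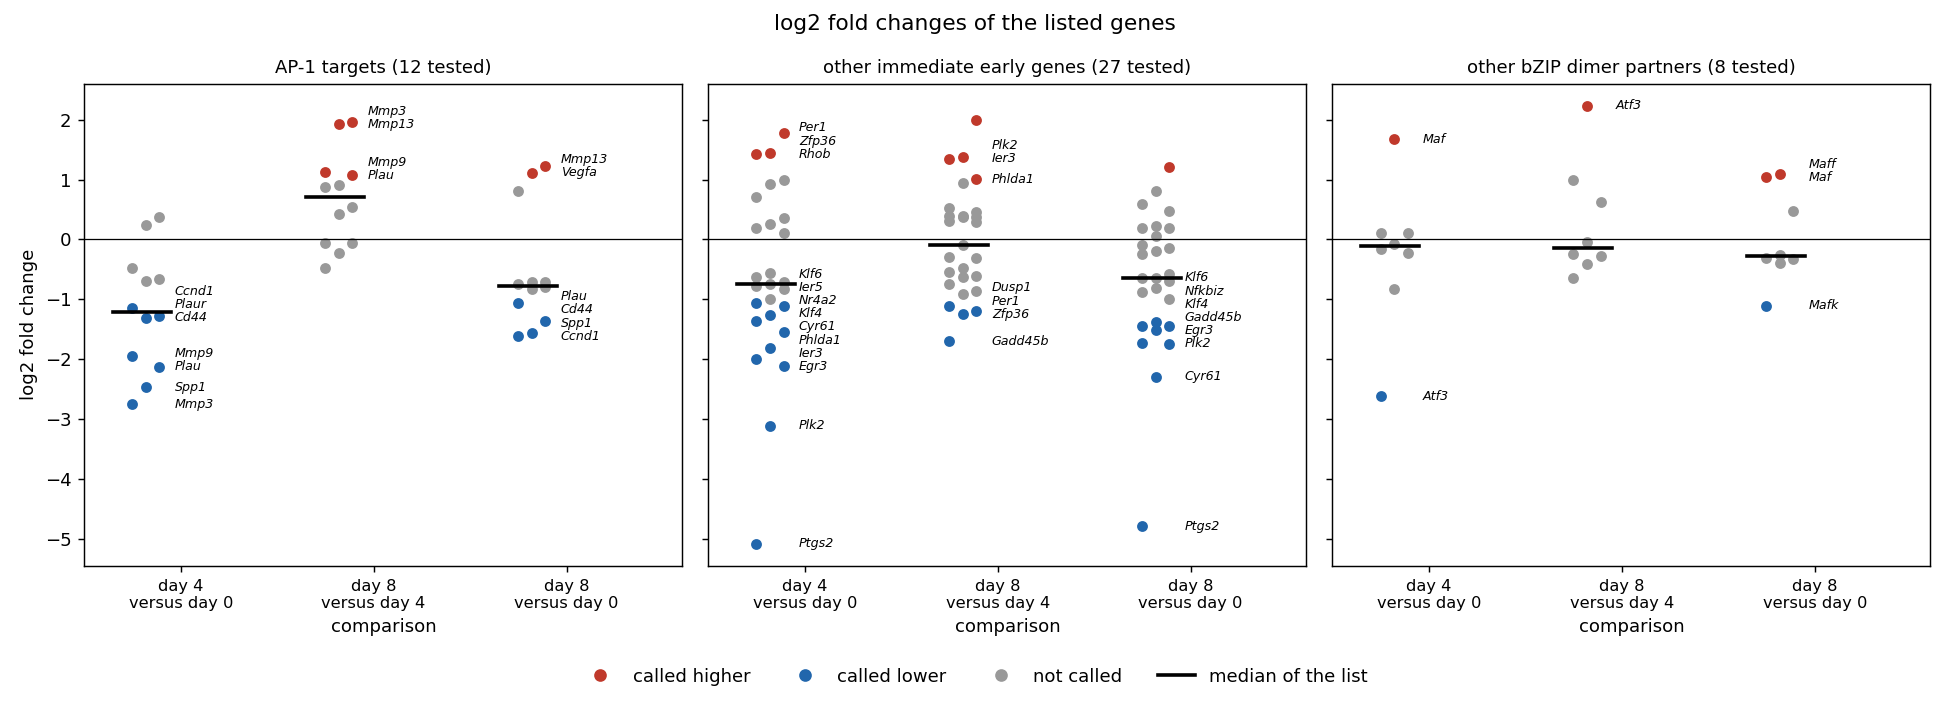
Log2 fold changes (y axis) of the tested AP-1 targets (12), other immediate early genes (27) and other basic leucine zipper genes (8) in the 3 comparisons, with 1 point per gene, the median as a bar, and names for called genes with an average of at least 1 on the log2 CPM scale. The AP-1 targets have medians of -1.22, 0.71 and -0.77, and the early and late comparisons share the day 4 samples.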

How the data were processed

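RNA-seq of 9 samples of 3T3-L1 cells was analysed. According to the study's methods, the authors removed reads of low quality, mapped the rest with HISAT/Bowtie2 and quantified genes with RSEM, and the submitters' processing notes name CASAVA 1.4 and Bowtie2. The genome build, annotation, strand setting and other versions are not given in the sources used here. The deposited expected counts are not normalized (29.8% are not whole numbers), and in the deposited FPKM the authors divided by gene length and by depth. A gene absent from a sample's table was set to 0. Of the gene IDs, 19040 matched the RefSeq gene table, and 26 symbols turned into dates were restored.

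Expected counts were rounded and fitted with edgeR 4.0.16 in R 4.3.3 (filterByExpr by day, TMM factors, 1 coefficient per day over all 9 samples, glmQLFTest, Benjamini-Hochberg), which was tested on simulated data. CPM used TMM library sizes, with a prior count of 2 before taking log2. Fold changes are log2 and errors are standard errors. Overlap between genes was counted over all 50-base stretches of their transcripts in GENCODE vM21, and promoter windows came from RefSeq on GRCm38.p6.

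The 10 genes and all lists were chosen with earlier results of these data known. The text names the 10 genes and, of each other list, genes called in a comparison at an average of at least 1 on the log2 CPM scale, at most 4 per list and comparison by size, genes not tested, the 3 most similar genes per member, and markers. Arc, Mlxipl, Mycl, Per1, Rhob, Dusp1, Phlda1, Max, Srf, Nab1, Nab2 and Ccdc85b were named after their values were seen. The alternatives were other scaling factors, filters, tests (DESeq2 1.42.0, edgeR's exact test, limma 3.58.1 on log2(FPKM + 1) and log2(FPKM + 0.1)) and thresholds, FPKM rescaled per sample, a replicate block, and leaving out each sample. Some listed genes are not reported here and were left out of the list counts. Protein sequences were not analysed here.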

Additional observations from a re-analysis of the deposited data

How the results depend on the processing

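The early rise and late fall of Fos and Fosb and the late rise of Fosl1 kept their direction and their calls under all 21 alternatives that kept Fosl1 as its own feature. The alternative without a fold threshold is the same fit, so it could not lose a call. Some of the samples left out belonged to the day not compared. The log2 fold change ranged from 1.21 to 1.97 for Fos and from 1.31 to 2.39 for Fosb in the early phase, and from 2.10 to 2.54 for Fosl1 in the late phase. With the counts of Fosl1 and Ccdc85b summed, an alternative chosen after seeing the data, the late value fell to 1.05 and remained called. With library size alone the median of all tested genes over the whole process was -0.13, a shift of -0.11 from that with TMM factors. With FPKM rescaled to the same total in every sample (as in TPM), which multiplies all genes of a sample by 1 factor, the Fos family summed to 183, 377 and 220 and the Jun family to 603, 602 and 563 at day 0, day 4 and day 8, and the shares and ratios within a sample stay as they are by construction.

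Without a fold threshold, 3 of the 10 genes passed higher and 4 lower in the early phase, 2 higher and 3 lower in the late phase, and 2 higher and 4 lower over the whole process, among 4676 genes higher and 4430 lower, 2964 and 2989, and 4583 and 4756. With limma on log2(FPKM + 1), whose fold changes understate low genes, 708 genes were called higher and 565 lower in the early phase, 224 and 136 in the late phase, and 753 and 528 over the whole process. With at least 10 counts in every sample, which tests fewer genes, 831 genes were called higher in the early phase and 310 higher and 173 lower in the late phase. When 1 sample was left out, the genes among the 10 called lower numbered 0 to 1 in the early phase (Egr2) and 1 to 2 over the whole process (Fosb).

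Signs turned only for log2 fold changes that were not called. For Fosl1 in the early phase the value was -0.0136 with upper-quartile factors, -0.0323 with library size alone, -0.0455 with limma on log2(FPKM + 1) and -0.0520 with limma on log2(FPKM + 0.1), and for Junb it was -0.0328 and -0.0332 with limma at those pseudocounts. With 1 sample left out, the early values ranged from -0.14 to 0.37 for Fosl1 and from -0.23 to 0.23 for Junb, whose lowest, without day 4 replicate 3, had an adjusted p of 0.035. The late values ranged from -0.114 to 0.0308 for Jun, from -0.415 to 0.0457 for Junb and from -0.40 to 0.20 for Egr2, each highest without day 4 replicate 3. For Fos over the whole process they ranged from -0.24 to 0.22, the highest without day 0 replicate 3. The cause was not tested.

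Over all tested genes, deviations of samples with the same replicate number had correlations from -0.03 to 0.08, most of them positive. Those of samples with different numbers ran from -0.10 to 0.06, most of them negative. Not every sample correlated best with its own number, so whether the numbers pair the samples cannot be told from these small values. On each day, replicate 3 was the highest for most of the 10 genes. With the replicate number as a block, 2, 1 and 1 of the 10 genes were called higher and 1, 2 and 2 lower, as without it. The early log2 fold changes of Fos and Fosb were then 1.62 ± 0.14 and 1.86 ± 0.17, beside 1.67 ± 0.27 and 1.93 ± 0.37 without the block. With the block, Jun over the whole process (edgeR adjusted p = 0.019) and Egr1 in the late phase (edgeR adjusted p = 0.0025) also passed the p threshold. Their log2 fold changes were -0.15 and 0.35, under 2-fold.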
